A study of Mus musculus with 24 samples.

Results

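Bone morphogenetic proteins (BMPs) were followed through 9 genes chosen by name: the ligand genes Bmp2, Bmp4, Bmp6 and Bmp7, the secreted antagonist gene Grem1 (gremlin 1), the inhibitory SMAD gene Smad6, and the target genes Id1, Id2 and Id3. All 9 were among the 21878 genes of the count table, and 8 passed the filter on low counts. Grem1 did not pass it. The samples were hearts of ovariectomised (OVX) mice taken 3 weeks after myocardial infarction (MI), sequenced as poly(A) RNA. The 4 groups were MEC (AAV9-Empty, Control, 6 libraries), MES (AAV9-Empty, Swim, 6 libraries), MOC (AAV9-OE miR-21, Control, 6 libraries) and MOS (AAV9-OE miR-21, Swim, 5 libraries). AAV9 is an adeno-associated virus used to carry genes into mouse tissues, here either empty or overexpressing the microRNA miR-21, and swimming training preceded the infarction. Ovariectomy, infarction and a vector were common to all 4 groups, so none of them is an untreated heart. Strain, age and the promoter of the vector are not given in the labels used here. The labels do not say that each library is a separate mouse, so p-values measure only the spread between these samples, which may be technical. MOS replicate 6 was not analysed here.

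BMPs are secreted dimers of the TGF-beta superfamily. They bind type I and type II receptor kinases that phosphorylate SMAD1, SMAD5 and SMAD9, which enter the nucleus with SMAD4 and switch on target genes, the Id genes first among them. Id proteins bind basic helix-loop-helix transcription factors and keep them off DNA. Gremlin, noggin and the chordin family hold ligands away from receptors, and SMAD6 blocks the signal inside the cell as feedback. In the heart BMP signalling shapes valves and septa before birth, and in the adult it is active in endothelial cells, fibroblasts and muscle.

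The 4 groups differ in miR-21, so the sequence of the microRNA is given first, with its seed (bases 2 to 8 from the 5′ end) in capitals, as RefSeq lists it for GRCm38.p6 at chr11:86584120-86584141 on the minus strand.
mmu-miR-21a-5p: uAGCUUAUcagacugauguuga
The 7 bases ATAAGCT pair with that seed. They were sought on the transcript strand only, in 1 annotated 3′ untranslated region (UTR) per gene (GENCODE M21, GRCm38). None of the 9 genes held a match, in 3′ UTRs of 339 (Bmp4) to 3436 (Grem1) bases. A match was present in 1018 of the 12982 tested genes with a 3′ UTR, or 7.84%. It was present in 6 of 68 other BMP pathway genes, or 8.82%, and in some of these, Bmpr2 (the type II BMP receptor) and Ski (a nuclear repressor of SMADs) among them, an A followed the 7 bases. Both sites are shown as examples of that longer match, with the pairing bases and the A in capitals.
Bmpr2: acaggagaaacATAAGCTAccaagtattca
Ski: acacttttgttATAAGCTAtttaaaaccag
The Bmpr2 site begins at base 6647 of an 8529-base 3′ UTR and the Ski site at base 298 of 3266. Between MOC and MEC the log2 fold change of Bmpr2 was 0.07 ± 0.05 (SE) and that of Ski was -0.12 ± 0.06, and between MOS and MES they were -0.03 ± 0.06 and -0.05 ± 0.06. None of these 4 values passed the test (edgeR adjusted p from 0.2 to 0.836). A match is a description of letters, and its absence from a window says nothing about what acts on the gene.

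Each library held 12744241 to 14657630 counts, and 0 of 253 pairs of libraries had identical counts. Cardiomyocyte markers (Myh6, Tnnt2, Actc1, Ttn, Tnni3 and Myl2) summed to between 49800 and 104000 CPM (counts scaled to the size of the library) in each library, so heart muscle was present throughout. Libraries MEC 2, MEC 5 and MOS 2 stood apart in adipocyte markers (Adipoq, Cfd, Cidec, Plin1, Retn and Lep), whose summed level was 219, 177 and 208 CPM there against at most 12.1 CPM elsewhere. The same 3 libraries were the highest in macrophage (386, 331 and 398 CPM against at most 199) and B and T cell markers (14.4, 8.03 and 30.6 CPM against at most 5.11), and fibroblast markers reached 2771, 2486 and 2238 CPM there, with MEC 4 at 2270 and at most 1403 elsewhere. MOS 2 also had a mesothelial and epicardial sum of 175 CPM against at most 40.2 elsewhere, and the lowest cardiomyocyte sum. Of these lists, 4 of 5 mesothelial markers were called higher in MOS against MES. The sum of all 5 was 175 CPM in MOS 2 and 5.19 to 12.6 CPM in MOS 1, 3, 4 and 5. In MES it was 7.88 to 13.6 CPM. Upk3b (mesothelial), Spp1 (macrophage), Cd3e (T cell) and Dcn (fibroblast) fell in MES against MEC. Their part in the results was not tested. Results are therefore also given without these 3 libraries. The numbers in the sample titles form a lower series in MEC, MOC and MOS 1 and 2 and a higher series in MES and MOS 3 to 5. What the series mark is not given in the labels, and between MEC and MES the series and swimming cannot be told apart.

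Id1 and Id3 were the most abundant of the 9 transcripts per length, at a mean of 61.5 and 61.4 FPKM (fragments scaled to transcript length and library size) over the 23 libraries. Bmp6 followed at 12.7 FPKM, Id2 at 8.25 FPKM, Smad6 at 6.30 FPKM and Bmp4 at 4.70 FPKM. Bmp7 and Bmp2 were low, at 0.673 and 0.593 FPKM, with overlapping ranges of 0.262 to 1.09 FPKM and 0.231 to 1.67 FPKM. Among these 4 ligands the message was thus mostly Bmp6 and Bmp4. Bmp2 was above Bmp7 in MEC (1.09 against 0.502 FPKM) and below it in MES (0.340 against 0.802), MOC (0.387 against 0.603) and MOS (0.548 against 0.810). Bmp2 rested on 11 to 87 counts per library and Bmp7 on 14 to 54.

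**Figure D1:**
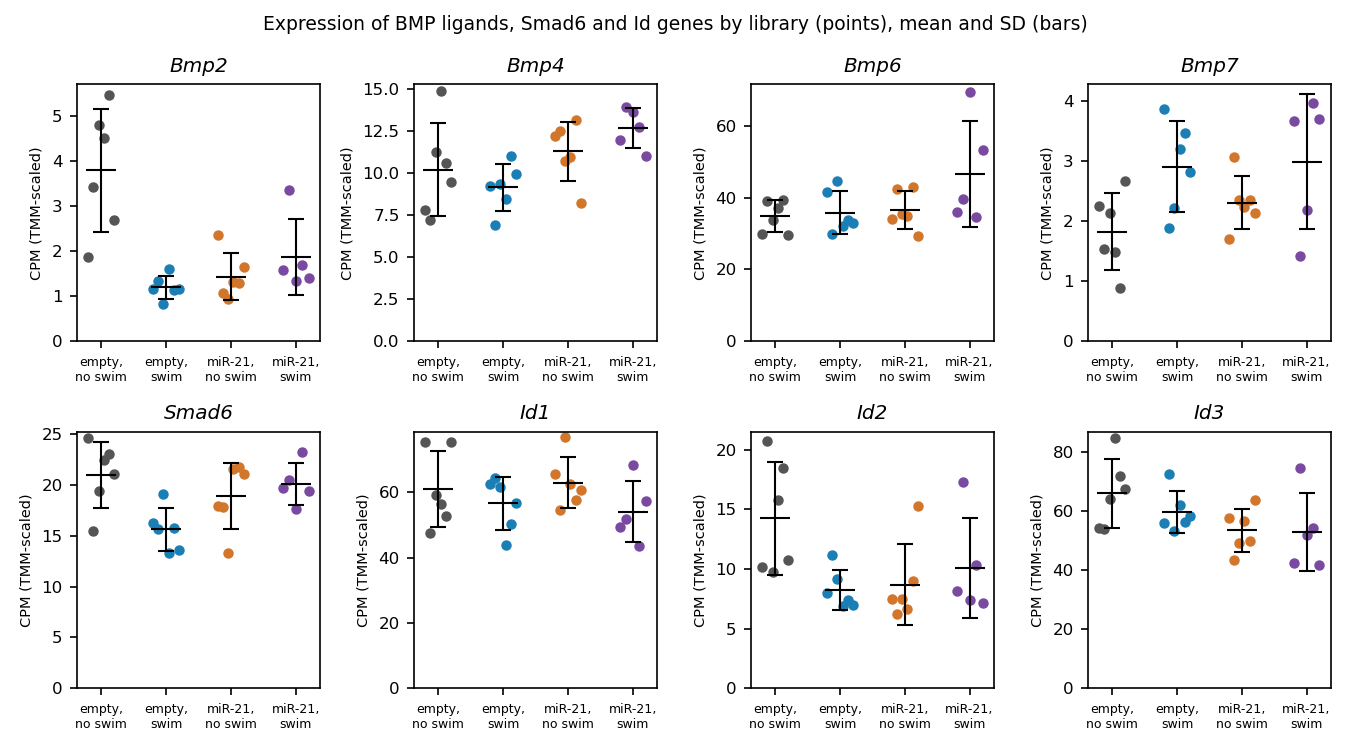
Expression of the 8 tested genes in each library, in CPM scaled by TMM on a linear axis from 0 (points), with the mean and SD of each group (bars), for MEC (empty, no swim), MES (empty, swim), MOC (miR-21, no swim) and MOS (miR-21, swim). Bmp2 in MEC spans 1.87 to 5.46 CPM and lies above all MES libraries, while the 4 groups overlap for Id1 and Id3.

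Bmp2 encodes a ligand known for driving bone formation and heart valve development. In MEC its level had a lowest, median and highest value of 1.87, 3.96 and 5.46 CPM. In MES these were 0.817, 1.15 and 1.60 CPM, and in MOC 0.928, 1.30 and 2.36 CPM. The 5 MOS libraries read 1.58, 3.35, 1.33, 1.69 and 1.40 CPM. MEC was therefore the high group. It did not overlap with MES, as for 4.58% of all tested genes, and it overlapped with MOC only in that MOC 1 lay above MEC 1. MOS overlapped with every other group, and MOS 2 was its high library. Group means were 3.79 ± 1.37 CPM in MEC (SD, n = 6), 1.87 ± 0.842 in MOS (n = 5), 1.43 ± 0.514 in MOC (n = 6) and 1.20 ± 0.258 in MES (n = 6), and MOS differed from neither MES nor MOC past the threshold. MES and MOC were not compared.

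Swimming under the empty vector (MES against MEC) asked how training changes the infarcted heart. Of the 8 tested genes 2 were called, Bmp2 and Smad6, both lower, where 7.46% of all 13501 tested genes were called, 4.18% higher and 3.28% lower. Bmp2 fell by 1.66 on the log2 scale (SE 0.29, edgeR quasi-likelihood test, adjusted p = 0.00148), to 0.317 of the MEC level, and was lower in 6 of 6 MES libraries. Without the 3 adipocyte-high libraries it was -1.53 (adjusted p = 0.000929), and with any 1 library left out it stayed between -1.80 and -1.53. When the title series entered the model, a term set by MOS 1 and 2 against MOS 3 to 5 alone, it was -0.91 (adjusted p = 0.46) and not called. The median log2 fold change of the 8 genes was -0.15, and that of all tested genes was -0.00.

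miR-21 without swimming (MOC against MEC) asked how the vector changes the infarcted heart at rest. Bmp2 was called alone among the 8 genes, where 2.25% of all tested genes were called, 0.881% higher and 1.37% lower. It fell by 1.40 (SE 0.28, adjusted p = 0.0197), to 0.380 of the MEC level, in 6 of 6 MOC libraries. The call was lost without MEC 4 (-1.35, adjusted p = 0.0538), MEC 5 (-1.25, 0.0749), MOC 2 (-1.33, 0.0596) or MOC 3 (-1.31, 0.0583), and it held without the 3 adipocyte-high libraries (-1.27, adjusted p = 0.0111). This comparison and the swimming comparison share the MEC libraries, so their Bmp2 values are not independent. The median of the 8 genes was -0.05, against -0.00 over all tested genes.

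Under swimming the miR-21 vector (MOS against MES) gave Bmp2 a log2 fold change of 0.65 ± 0.30 (adjusted p = 0.227), and swimming under the miR-21 vector (MOS against MOC) one of 0.39 ± 0.30 (adjusted p = 0.468). In the first of these, 0 of 8 genes were called by edgeR, 4 at an unadjusted p under 0.05 (19.8% of all tested genes were) and 1 by DESeq2 (Bmp4), where edgeR called 4.58% of all tested genes, 1.87% higher and 2.71% lower. In the second, 0 of 8 were called by edgeR, 1 at an unadjusted p under 0.05 (18.8% of all tested genes were) and 0 by DESeq2, where edgeR called 0.17% of all tested genes, 0.0518% higher and 0.119% lower. Whether swimming acted differently with each vector was tested as an interaction. For Bmp2 this was 2.05 ± 0.41 (adjusted p = 0.0291), from -1.66 under the empty vector to 0.39 under miR-21. Bmp2 was the only 1 of the 8 genes called in this test, where 0.541% of all tested genes were called, 0.326% with a positive and 0.215% with a negative difference. The difference missed the threshold without MEC 5 (1.92), MES 1 (2.04), MES 5 (2.03), MES 6 (2.05), MOC 2 (1.99), MOC 3 (1.97), MOC 4 (2.04) or MOS 2 (1.72), with adjusted p from 0.0504 to 0.0632. With the 3 adipocyte-high libraries left out it was 1.60 (adjusted p = 0.0746), and with the title series term 1.70 (adjusted p = 0.137).

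**Figure D2:**
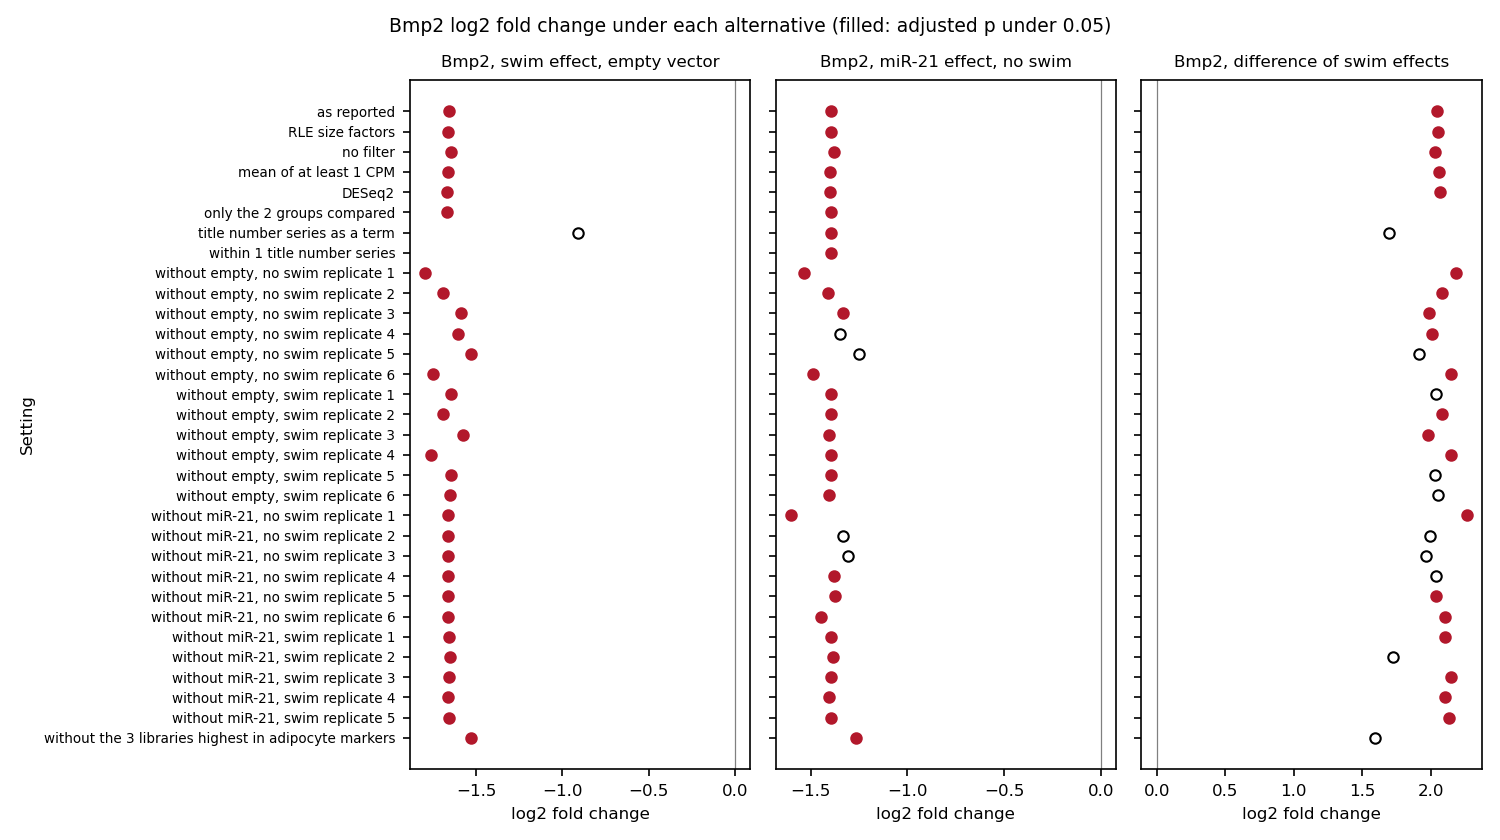
Log2 fold change of Bmp2 (x axis) under each way of processing (y axis), for swimming with the empty vector, miR-21 without swimming, and the difference of the swimming effects. Filled points have an adjusted p under 0.05. All points keep their side of 0, and the value nearest to 0 for swimming is -0.91, with the title number series as a term.

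Markers of activated fibroblasts (Postn, Cthrc1, Comp, Fn1 and Acta2) were high in some of the libraries where Bmp2 was high. Their summed level ran from 576 to 1650 CPM in MEC, 528 to 940 in MES, 305 to 461 in MOC and 222 to 1870 in MOS, and 0 of the 5 markers were at 0 counts in any library. Comp alone of these 5 markers fell in MES, and Comp and Cthrc1 fell in MOC. In the interaction Comp alone of the 5 was called, with a positive difference like that of Bmp2. MEC 2, 4 and 5 and MOS 2 had the highest sums, at 1622, 1568, 1647 and 1866 CPM, and their Bmp2 levels were 3.41, 4.51, 5.46 and 3.35 CPM. MEC 3 had a Bmp2 level of 4.79 CPM and a sum of 576 CPM, the lowest of the MEC libraries. The part of these cells in the Bmp2 result was not tested. In whole hearts, fewer cells of a type and less RNA per cell cannot be told apart.

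Adipocyte markers differed between the same groups. They summed to 2.53 to 219 CPM in MEC, 0.445 to 2.29 in MES, 0.46 to 3.77 in MOC and 0.826 to 208 in MOS. Of the 6 markers 3 were tested (Adipoq, Cfd and Cidec), and all 3 fell in MES against MEC. All 3 were also called in the interaction, as Bmp2 was, with a positive difference (median 9.62). There 0.541% of all tested genes were called. Between 1 and 4 of the 6 were at 0 counts in each MES library. MEC 3 and MEC 4, with adipocyte sums of 11.9 and 6.74 CPM, had Bmp2 levels of 4.79 and 4.51 CPM, above the 3.41 CPM of MEC 2. MEC 5, with 177 CPM of adipocyte markers, had the highest Bmp2 of all libraries (5.46 CPM), and MOS 2, with 208 CPM, the highest of MOS (3.35 CPM). The part of fat cells in the Bmp2 result was not tested beyond the values without these 3 libraries given above.

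The genes whose profile over the 23 libraries lay nearest to that of Bmp2 were Dmtn, Fam20a and Slc6a7. Likeness was the mean absolute difference between profiles of log2 CPM, each in units of its own SD, and it was 0.382, 0.389 and 0.4 against a median of 1.12 over 12477 genes. Dmtn encodes a protein that binds actin, Fam20a a secretory pathway pseudokinase, and Slc6a7 a proline transporter. Like Bmp2, all 3 had their highest group mean in MEC and their lowest in MES. Dmtn read 8.40 to 12.1 CPM in MEC and 5.51 to 7.31 in MES, and Fam20a 9.29 to 16.8 and 4.97 to 8.42, with no overlap in either (4.58% of all tested genes did not overlap). These genes were chosen for likeness to Bmp2 over the same libraries. The shared group order and the lack of overlap are therefore no separate results. Among the other tested members Id2 was the nearest to Bmp2 (0.571), then Id3 (0.712), and Bmp7 was the farthest (1.44).

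Bmp4 is a ligand made by mesenchymal and endothelial cells. Its lowest, median and highest levels were 7.22, 10.03 and 14.9 CPM in MEC, 6.91, 9.29 and 11.04 in MES, and 8.24, 11.6 and 13.2 in MOC. The MOS libraries read 12.01, 13.9, 13.7, 12.7 and 11.04 CPM. MOS was the highest group, and only its lowest library, MOS 5, was no higher than the highest MES library. The difference between MOS and MES was 0.47 ± 0.15 (5 of 5 libraries higher than the MES mean, adjusted p = 0.0816), which missed the threshold. DESeq2 called it (0.47, adjusted p = 0.0498), as did edgeR without MEC 4 (0.47, adjusted p = 0.0418). In the other 3 comparisons of groups Bmp4 lay between -0.16 and 0.17 (edgeR adjusted p from 0.512 to 0.556), and its interaction was 0.32 ± 0.21 (adjusted p = 0.383).

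Bmp6, an endothelial ligand best known for controlling iron through hepcidin, was the most abundant ligand. Levels ran from 29.5 to 39.5 CPM in MEC (median 35.4), 29.9 to 44.6 in MES (33.3) and 29.3 to 43.1 in MOC (35.3). The MOS libraries read 36.0, 39.6, 69.5, 34.6 and 53.3 CPM, so that MOS 3 and MOS 5 lay above all libraries of the other groups and the other 3 within their range. The MOS difference was 0.38 ± 0.16 against MES (adjusted p = 0.173) and 0.35 ± 0.16 against MOC (adjusted p = 0.239). Restricted to MOS 3 to 5, the libraries of the same title series as MES, the first of these was 0.56 (adjusted p = 0.0421). Against MOC within the lower series, with MOS 1 and 2, it was 0.06 (adjusted p = 0.816).

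Bmp7, a ligand with a known antifibrotic action in kidney and heart models, was higher in MES on average but not past the threshold. MEC had a lowest, median and highest level of 0.879, 1.84 and 2.68 CPM, MES 1.89, 3.02 and 3.87, and MOC 1.70, 2.30 and 3.07. The MOS libraries read 3.68, 1.41, 2.19, 3.98 and 3.71 CPM, 3 of them near the top of MES and MOS 2 below all of MES. The MES difference was 0.68 ± 0.27 (6 of 6 libraries above the MEC mean on the log2 scale, adjusted p = 0.125), and the other 3 comparisons of groups gave 0.03 to 0.37 (adjusted p from 0.398 to 0.964). The Bmp7 interaction was -0.31 ± 0.38 (adjusted p = 0.671). Its lowest libraries, MEC 5 at 0.879 CPM and MOS 2 at 1.41 CPM, were among the 3 adipocyte-high ones, and without those 3 the MES difference was 0.45 (adjusted p = 0.224).

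Grem1, which binds BMP2 and BMP4, was close to undetected. It had 3 counts in all, 1 in MEC 4 and 2 in MOC 6, and none in the other 21 libraries. A count of 0 allows up to 3 counts, or 0.176 to 0.253 CPM depending on the library, for counting error only. No difference between groups could be detected at this depth.

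Smad6, whose protein competes with SMAD4 and recruits ubiquitin ligases to BMP receptors, is itself a BMP target and is abundant in endothelium. Its lowest, median and highest levels were 15.4, 21.8 and 24.7 CPM in MEC, 13.3, 15.7 and 19.2 in MES, and 13.3, 19.5 and 21.8 in MOC. The MOS libraries read 19.7, 20.5, 17.6, 23.3 and 19.4 CPM. MES was the low group, below the MEC mean in 6 of 6 libraries, and only MEC 2 of the MEC libraries lay within the MES range. Smad6 fell by 0.43 in MES (SE 0.12, edgeR adjusted p = 0.0315), to 0.744 of the MEC level. The call held without the 3 adipocyte-high libraries (-0.49, adjusted p = 0.00975). It was lost without MEC 1 (-0.38, adjusted p = 0.0662), MEC 4 (-0.41), MEC 5 (-0.40), MES 1 (-0.44), MES 2 (-0.43), MES 4 (-0.38), MES 5 (-0.43) or MES 6 (-0.39), with adjusted p from 0.0529 to 0.0704, and with the title series term (-0.43, adjusted p = 0.438).

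Under swimming, Smad6 in MOS against MES was 0.36 ± 0.13 (5 of 5 libraries above the MES mean, adjusted p = 0.0999). Without the 3 adipocyte-high libraries this was 0.36 (adjusted p = 0.0435). The difference between the swimming effects was 0.51 ± 0.17 (adjusted p = 0.108). Endothelial markers moved the other way: Cdh5, Erg, Pecam1 and Tek, 4 of 6, rose in MES against MEC, and Cdh5, Erg, Kdr and Pecam1 fell in MOS against MES. The summed endothelial level ran from 1020 to 1250 CPM in MEC, 1240 to 1540 in MES, 1060 to 1200 in MOC and 1010 to 1210 in MOS, with 0 markers at 0 counts in any library. Their part in the Smad6 values was not tested.

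Id1, the classical direct target of BMP-activated SMADs in endothelial cells, was level across the groups. Levels ran from 47.7 to 75.3 CPM in MEC (median 57.8), 44.0 to 64.4 in MES (59.2), 54.7 to 76.9 in MOC (61.7) and 43.5 to 68.4 in MOS (52.0), and all 4 groups overlapped. Its log2 fold changes between groups lay between -0.22 and 0.04, with SEs of 0.12 to 0.13 (adjusted p from 0.355 to 0.831). Id3, often expressed along with Id1, ran from 53.8 to 84.5 CPM in MEC (median 65.6), 53.0 to 72.5 in MES (57.2), 43.5 to 63.5 in MOC (53.3) and 41.5 to 74.4 in MOS (51.8). MEC held the highest Id3 mean, and the difference to MOC was -0.30 ± 0.13 (6 of 6 libraries below the MEC mean, adjusted p = 0.142). The other 3 differences between groups in Id3 were -0.01 to -0.17 (adjusted p from 0.521 to 0.967), and its interaction was 0.13 ± 0.19 (adjusted p = 0.724).

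Id2 spread more than the other Id genes, relative to its mean level. Its lowest, median and highest levels were 9.72, 13.2 and 20.7 CPM in MEC, 6.89, 7.69 and 11.2 in MES, and 6.22, 7.51 and 15.3 in MOC. The MOS libraries read 8.18, 17.3, 7.41, 10.3 and 7.17 CPM. High values came from MEC 2 (20.7), MEC 5 (18.5), MOS 2 (17.3), MEC 4 (15.8) and MOC 6 (15.3), and every other library was at 11.2 CPM or lower. The first 4 of these were also the libraries with the highest activated fibroblast sums, and MOC 6 was not (407 CPM). Macrophage markers (Cd68, Adgre1, Csf1r, Cd163 and Spp1) summed to 386 CPM in MEC 2, 331 in MEC 5, 398 in MOS 2, 190 in MEC 4 and 195 in MOC 6. With MES 2 (199 CPM, Id2 at 11.2 CPM) these were the 6 libraries highest in macrophage markers and the 6 highest in Id2. By group the macrophage sums ran from 99.5 to 386 CPM in MEC, 113 to 199 in MES, 78.4 to 195 in MOC and 84.5 to 398 in MOS, with 0 of the 5 markers at 0 counts in any library, and Spp1 alone fell in MES against MEC. The part of these cells in the Id2 values was not tested.

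The Id2 difference was -0.79 ± 0.25 in MES against MEC (6 of 6 libraries lower than the MEC mean, adjusted p = 0.0559) and -0.71 ± 0.25 in MOC against MEC (5 of 6, adjusted p = 0.0911). Neither passed. The MES difference was called by DESeq2 (-0.79, adjusted p = 0.0244), in a fit of the 2 groups alone (-0.80, adjusted p = 0.0299), and without MEC 1 (-0.87, adjusted p = 0.0456), MEC 3 (-0.89, 0.0439), MOC 6 (-0.80, 0.0343) or MOS 2 (-0.78, 0.0191). Without MOS 2 the MOC difference was called too (-0.70, adjusted p = 0.0266). Without all 3 adipocyte-high libraries the differences were -0.49 (adjusted p = 0.147) and -0.41 (adjusted p = 0.261), and with the title series term the MES difference was -0.17 (adjusted p = 0.899). MOS differed from MES by 0.29 ± 0.26 (adjusted p = 0.574) and from MOC by 0.22 ± 0.26 (adjusted p = 0.657). The difference of the swimming effects was 1.01 ± 0.36 (adjusted p = 0.129).

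The nearest profiles to Id2 were those of B4galt5 (0.278), a lactosylceramide synthase, Serping1 (0.291), the C1 inhibitor of complement, and Scara3 (0.299), a scavenger receptor, against a median of 1.14. All 3 had their highest group mean in MEC, and in MOS their highest library (40.3, 549 and 41.5 CPM) lay well above the MOS median (19.0, 188 and 3.75 CPM). They were chosen for likeness to Id2 over the same libraries, so this shared pattern is no separate result. The nearest genes to Id1 were Hey1 (0.585), an endothelial transcription factor on the list of BMP targets, Smek1 (0.586) and Ngly1 (0.604). For Bmp7 they were Tbx2 (0.464), a cardiac transcription factor on the same list, Rbms2 (0.483) and Lmod3 (0.484). No more than these distances is known about how the genes are related.

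**Figure D3:**
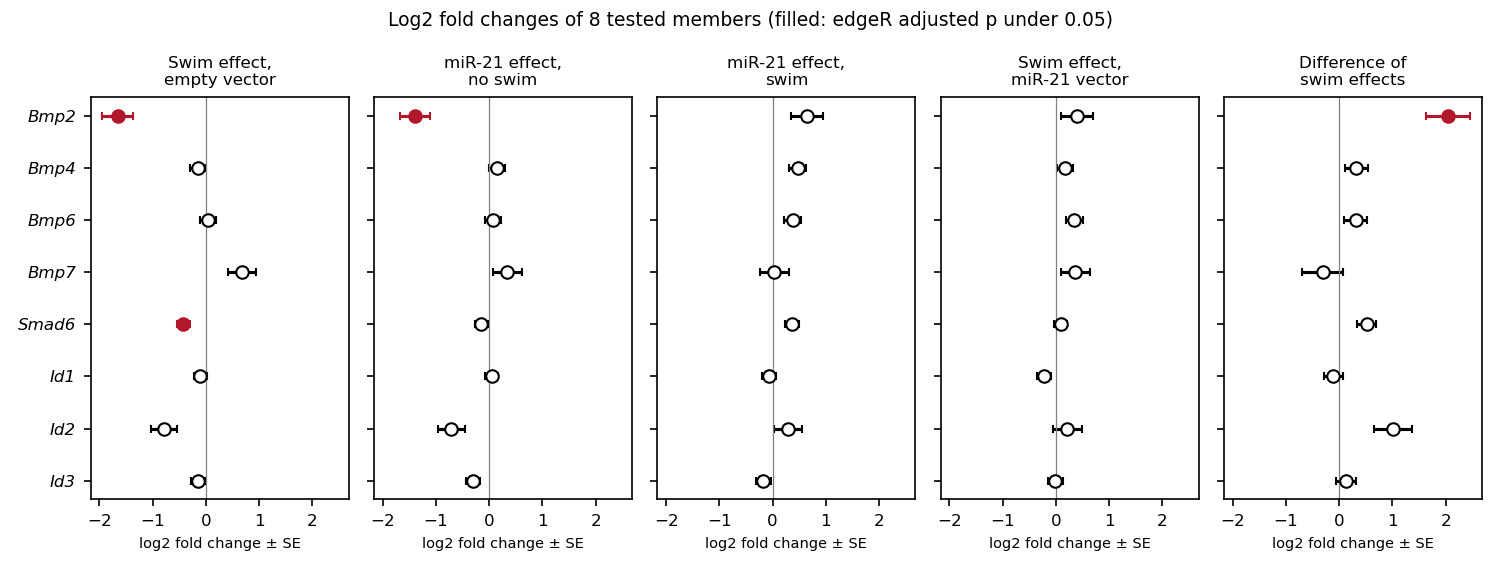
Log2 fold change with SE (x axis) of the 8 tested genes (y axis) in each of the 5 comparisons, filled where the edgeR adjusted p is under 0.05. Bmp2 is called at -1.66, -1.40 and 2.05 and Smad6 at -0.43, and the remaining points are open.

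The rest of the pathway was read from a list of 69 genes, of which 68 were in the table and 50 were tested. In MES against MEC 3 rose and 3 fell, 12% of the 50, beside 7.46% of all genes. Among them Vwc2, which rose, and Chrdl1, which fell, passed the filter only through groups where they were higher. In MOC against MEC 1 rose and 1 fell (4%, beside 2.25%), and in MOS against MES 1 fell (2%, beside 4.58%). In MOS against MOC edgeR called 0 of 50, with 7 at an unadjusted p under 0.05 (14%, beside 18.8% of all genes) and 1 called by DESeq2. For the difference of the swimming effects edgeR called 0 of 50, with 16 at an unadjusted p under 0.05 (32%, beside 21.5% of all genes) and 5 called by DESeq2. The list's median log2 fold changes were -0.14, -0.05, 0.03, -0.01 and 0.08 in these 5 comparisons, beside medians of -0.00, -0.00, 0.02, 0.03 and 0.01 over all tested genes.

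Of 11 further ligands 3 were tested. Bmp5, a ligand close to Bmp6 and Bmp7, had a lowest, median and highest level of 0.595, 0.859 and 1.07 CPM in MEC and 0.994, 1.76 and 2.76 in MES. The groups overlapped at their edges. Bmp5 rose by 1.14 ± 0.29 (edgeR adjusted p = 0.018), a call lost without MES 5 (1.004, adjusted p = 0.0527) and with the title series term (1.53, adjusted p = 0.19). In MOC against MEC it was 0.71 ± 0.29 (adjusted p = 0.126). Bmp10, an atrial ligand, was at most 0.426 CPM in any library and was not tested.

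Of 17 secreted antagonists and binders 13 were tested, and in MES against MEC 2 fell and 1 rose. Chrdl1 (chordin-like 1), which binds BMP4, had lowest, median and highest levels of 0.225, 1.30 and 3.14 CPM in MEC and 0.0698, 0.350 and 0.535 in MES. The groups overlapped, and MEC spread widely. In MOC it was at most 0.710 CPM, so Chrdl1 passed the filter on low counts only through MEC and MOS, where it was higher. It was fitted in 28 of 30 alternatives for MES against MEC. Chrdl1 fell by 2.08 (SE 0.57, adjusted p = 0.0283). The call was lost without MEC 4, MEC 5, MES 1, MES 2 or MES 5 (-2.04 to -1.67), without the 3 adipocyte-high libraries (-1.42, adjusted p = 0.0668) and with the title series term (-0.37, adjusted p = 0.885).

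Nbl1, a DAN family antagonist, was the only one of these antagonists whose MEC and MES libraries did not overlap (4.58% of all tested genes did not): 34.4 to 66.2 CPM in MEC (median 42.0) and 20.2 to 29.9 in MES (23.7). It fell by 0.95 (SE 0.28, adjusted p = 0.0416). The call was lost without MEC 2, 4 or 5, any 1 of the 6 MES libraries, MOC 1, 2 or 5, or MOS 4 (-1.02 to -0.83), and with no filter on low counts (-0.94, adjusted p = 0.0572), and the sign turned with the title series term (0.05, adjusted p = 0.973). In MOC, at 18.3 to 31.3 CPM, it was also below all of MEC (5.44% of all tested genes did not overlap here), at -0.93 ± 0.28 (adjusted p = 0.0643), and it was called without MEC 3 (-1.02, adjusted p = 0.0491) or MOS 2 (-0.93, 0.00348), by DESeq2 (0.0156), in a fit of the 2 groups alone (0.0139), with the title series term (0.0332) and without the 3 adipocyte-high libraries (-0.82, 0.0298). The MOC difference stayed uncalled in 25 of 31 alternatives, with adjusted p (edgeR or DESeq2) up to 0.172. Vwc2, a secreted BMP binder of brain and cartilage, was low, with medians of 0.371 CPM in MEC and 1.27 in MES and overlapping ranges. It rose by 1.51 ± 0.41 (adjusted p = 0.0284). In MEC it was at most 0.600 CPM, so Vwc2 passed the filter on low counts only through groups where it was higher. Vwc2 was fitted in 28 of 30 alternatives. Its call was lost without MEC 4, 5 or 6 or MES 1, 3 or 5 (1.31 to 1.48), and with the title series term (0.85, adjusted p = 0.686).

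Fstl1, a follistatin-like secreted protein of injured heart, lay between 230 and 515 CPM in MEC and between 130 and 180 CPM in MOC. The groups did not overlap, as for 5.44% of all tested genes in this comparison, and the difference was -1.15 ± 0.33 (adjusted p = 0.0594). It was called by DESeq2 (adjusted p = 0.0192), in a fit of the 2 groups alone (0.0113), with the title series term (0.0331), without MEC 1, MEC 3, MOS 2 or MOS 3 (0.0047 to 0.0464) and without the 3 adipocyte-high libraries (-0.88, adjusted p = 0.0483). In 23 of 31 alternatives it stayed uncalled, with adjusted p (edgeR or DESeq2) up to 0.173. Chrdl1 had an interaction of 3.45 ± 0.81 (adjusted p = 0.0514), called by DESeq2 (adjusted p = 0.00655) and, with adjusted p from 0.023 to 0.048, without MEC 1, 3 or 6 or MOS 1, 3, 4 or 5. It stayed uncalled in 20 of 28 alternatives, the title series term among them. Over the 28 it ran from 2.03 to 3.68, with adjusted p (edgeR or DESeq2) up to 0.266.

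The tolloid family has members that cut chordin and free its ligands, and all 3 of its proteases on the list were tested. Tll2 had lowest, median and highest levels of 0.674, 0.844 and 2.36 CPM in MEC, 1.98, 2.19 and 2.90 in MES and 1.78, 2.89 and 3.21 in MOC. MEC was the low group and overlapped with both others. Tll2 rose by 1.01 ± 0.30 in MES (adjusted p = 0.0396) and by 1.21 ± 0.30 in MOC (adjusted p = 0.0419). The MES call was lost without MEC 2, 4, 5 or 6 or MES 1, 2, 3, 5 or 6 (0.89 to 1.05), without the 3 adipocyte-high libraries (0.83, adjusted p = 0.0807) and with the title series term (0.35, adjusted p = 0.809). The MOC call was lost without MEC 2, 4 or 5, MES 1, 2, 5 or 6, MOC 1, 2, 3, 4 or 5, or MOS 4 (1.09 to 1.25). Bmp1, the most abundant of the 3 proteases, went the other way. It ran from 86.8 to 157 CPM in MEC (median 112) and from 60.3 to 95.0 in MOC (median 74.4). EdgeR did not call Bmp1 in MOC against MEC, and DESeq2 did. The median log2 fold change of the 3 proteases was -0.63 there.

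Of the receptors and co-receptors 11 were tested. Bmpr1a, the main type I BMP receptor of heart muscle, had lowest, median and highest levels of 86.0, 95.3 and 110 CPM in MEC and 72.7, 82.3 and 88.0 in MES, which overlapped at their edges. It fell by 0.27 (SE 0.08, adjusted p = 0.0346), a call lost without MEC 1, 3 or 4 or MES 1, 2 or 5 (-0.28 to -0.23), with no filter (-0.26, adjusted p = 0.0645) and with the title series term (-0.24, adjusted p = 0.504). Under miR-21, Bmpr1a read 101 to 115 CPM in MOC and 70.7 to 99.7 in MOS, without overlap (2.76% of all tested genes did not overlap here), at -0.32 ± 0.08 (adjusted p = 0.0732), and DESeq2 called this difference (adjusted p = 0.0125). Acvrl1, the endothelial type I receptor ALK1, did not overlap between MOC and MEC (5.44% of all tested genes did not), at -0.26 ± 0.08 (adjusted p = 0.0597), and was called without MEC 1 (-0.29, adjusted p = 0.044), MEC 3 (-0.30, 0.045) or MOS 2 (-0.25, 0.00669), by DESeq2 (0.0278), in a fit of the 2 groups alone (0.0245) and with the title series term (0.0429). Acvrl1 stayed uncalled in 25 of 31 alternatives, with adjusted p (edgeR or DESeq2) up to 0.181.

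The 10 SMADs and intracellular inhibitors were all tested. Skil, a SMAD corepressor, had lowest, median and highest levels of 24.4, 29.8 and 38.5 CPM in MEC and 16.7, 23.0 and 25.3 in MOC, overlapping at their edges, and fell by 0.46 (SE 0.12, adjusted p = 0.045). The call was lost without MEC 1, 2, 4 or 5, MES 1, 2, 4, 5 or 6, any 1 of the 6 MOC libraries, or MOS 4 (-0.50 to -0.39), and with no filter (-0.45, adjusted p = 0.0573). Smad5, a BMP receptor substrate, read 62.5 to 80.0 CPM in MES (median 70.0), and in MOS the lowest, median and highest were 55.3, 60.2 and 63.2. It fell by 0.23 in MOS against MES (SE 0.06, adjusted p = 0.0394). That call was lost without MEC 2 or 3, MES 2, 4, 5 or 6, MOC 1, 2, 4, 5 or 6, or MOS 1, 3, 4 or 5 (-0.25 to -0.19), with no filter (-0.23, adjusted p = 0.0599), in a fit of the 2 groups alone (-0.22, 0.118), with the title series term (-0.24, 0.0718) and within 1 title series (-0.23, adjusted p = 0.0653). Smad9, another substrate, was -0.44 ± 0.14 in MES against MEC (adjusted p = 0.0592), called by DESeq2 (adjusted p = 0.0404) and without MEC 2 (-0.52, 0.023), MOS 2 (-0.43, 0.0428) or MOS 4 (-0.44, 0.0489), and without the 3 adipocyte-high libraries (-0.53, 0.022). It stayed uncalled in 25 of 30 alternatives, the title series term among them. Over the 30 it ran from -0.53 to -0.26, with adjusted p (edgeR or DESeq2) up to 0.704.

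Of 15 further targets 10 were tested, and edgeR called 0 of them in each of the 5 comparisons, with 1 to 3 at an unadjusted p under 0.05 (18.8% to 28.4% of all tested genes were). DESeq2 called 1 of them, Atoh8, in 3 comparisons and none in the other two. Atoh8 is a target of ALK1 signalling in endothelium. Its lowest, median and highest levels were 12.8, 16.8 and 23.4 CPM in MEC, 11.2, 13.95 and 14.7 in MES, and 15.2, 18.6 and 20.1 in MOS. MES and MOS did not overlap (3.25% of all tested genes did not), at 0.40 ± 0.12 (adjusted p = 0.0531), and MES differed from MEC by -0.35 ± 0.11 (adjusted p = 0.0584). DESeq2 called both (adjusted p = 0.0274 and 0.0369) and the interaction of 0.65 ± 0.16 (adjusted p = 0.0565 with edgeR and 0.0126 with DESeq2). Without the 3 adipocyte-high libraries edgeR called the first at 0.36 (adjusted p = 0.0311) and the second at -0.44 (adjusted p = 0.0123). It also called the first without MEC 2, MEC 4 or MOS 4 (0.40 to 0.46), the second without MEC 2, MEC 3 or MOS 2 (-0.43 to -0.35), and the interaction without MEC 2, 3 or 6 or MOS 1 or 5 (0.64 to 0.73). In this order they stayed uncalled in 26 of 31, 25 of 30 and 23 of 29 alternatives, the title series term among them. Adjusted p (edgeR or DESeq2) reached 0.129, 0.597 and 0.182.

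**Figure D4:**
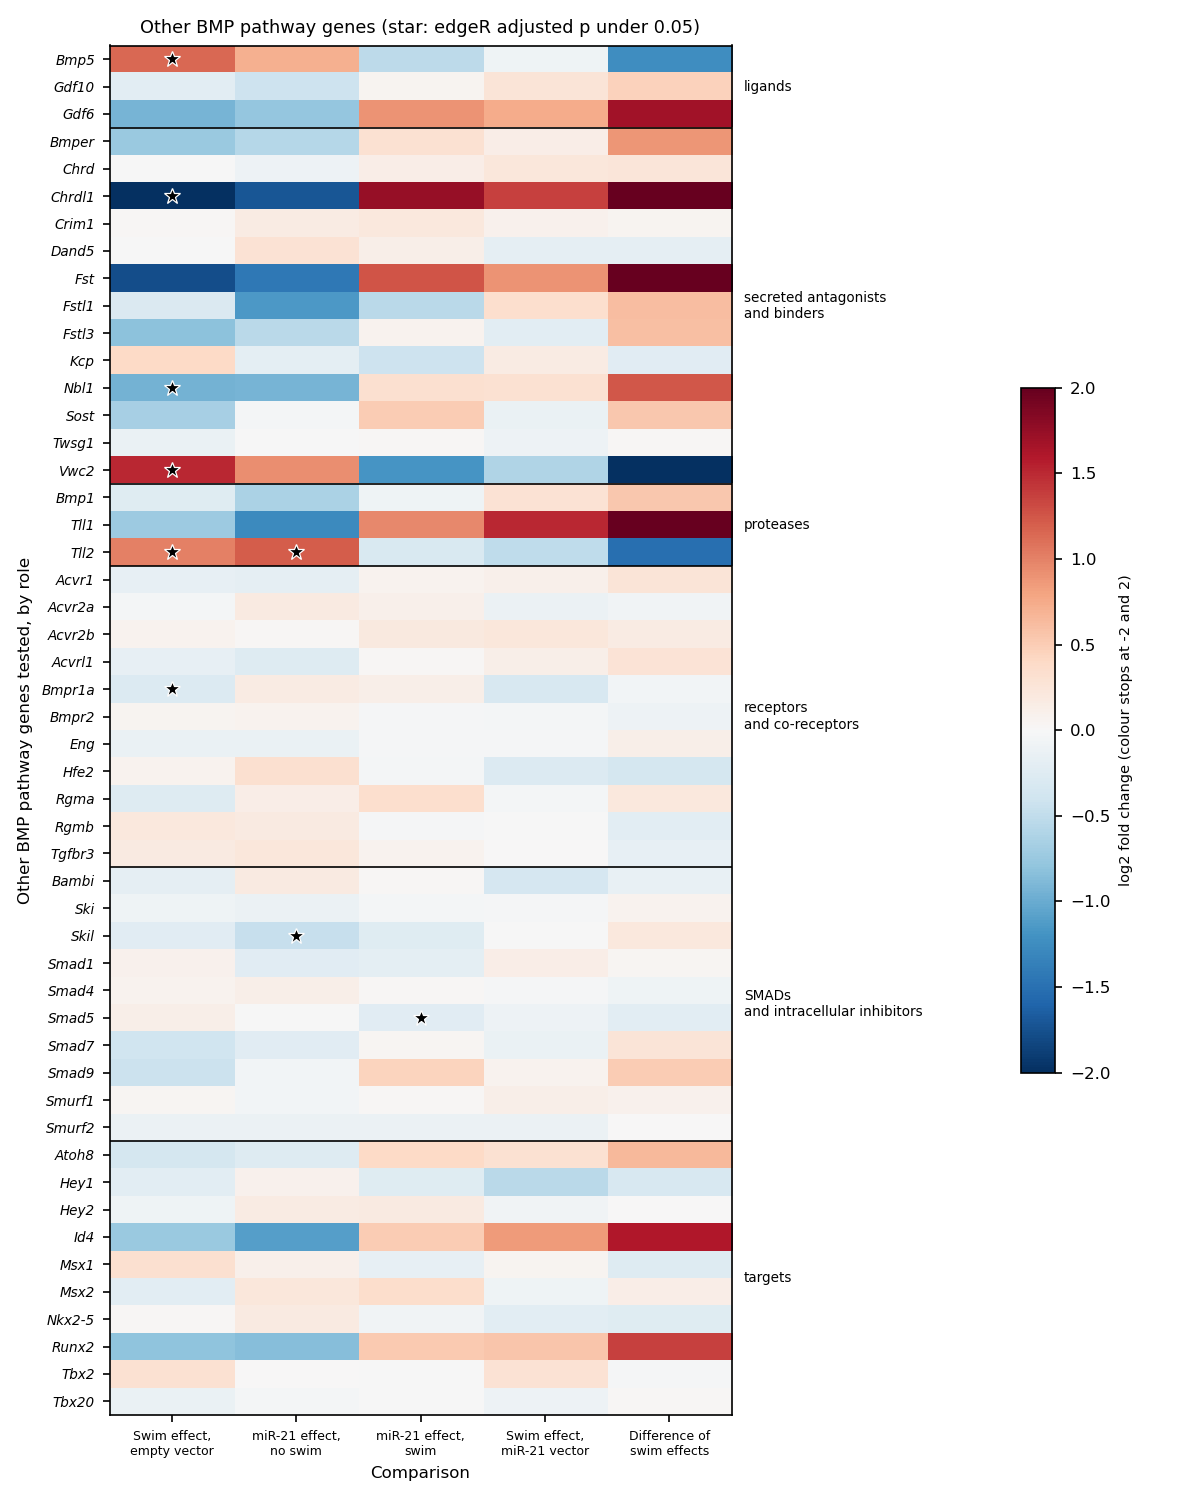
Log2 fold change (colour, stopping at -2 and 2) of the 50 tested genes of the wider BMP pathway (rows, by role) in the 5 comparisons (columns). Stars mark an edgeR adjusted p under 0.05: there are 6 in the first column, 2 in the second, 1 in the third and none in the last 2.

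In the authors' deposited tables, made with a test that is not named in them, Bmp2 had a log2 fold change of -1.67 (q = 0.000167) for MES against MEC and -1.40 (q = 0.00334) for MOC against MEC. The authors' deposited table for MES against MEC also gave Smad6 at -0.43 (q = 0.0341) and Id2 at -0.79 (q = 0.0545). For MOS against MES and MOS against MOC, the authors' deposited tables gave Bmp2 at 0.65 (q = 1) and 0.38 (q = 0.978).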

How the data were processed

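RNA of mouse hearts was extracted with TRIzol and made into stranded mRNA libraries, per the labels' protocols. The genome build was GRCm39, per the submitters' processing notes. Aligner and counting program: not given in the sources used here. The authors deposited whole-number counts per gene and FPKM values (per length and depth) for 23 libraries, and tables of comparisons with a log2 fold change, p-value and q-value computed by the authors. The 54 per-sample or per-group columns of those tables were not used.

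Groups came from the labels, and the numbers of libraries within a group follow accession order. Counts were scaled by TMM, filtered with filterByExpr (13501 of 21878 genes remained) and fitted in 1 model over the 4 groups with edgeR 4.0.16 (glmQLFit, robust, and the quasi-likelihood F-test) in R 4.3.3. The 4 group comparisons and the interaction of swimming with vector were tested, with Benjamini-Hochberg adjustment over all tested genes and a threshold of 0.05. SE is the log2 fold change divided by the root of F. FPKM served only to compare levels between genes. The script was checked on simulated counts.

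Alternatives were RLE scaling, no filter, a mean of at least 1 CPM, DESeq2 1.42.0, only the groups compared, the title number series as a term or held constant, and each library left out. Leaving out the 3 adipocyte-high libraries was added after seeing the data. The members and all lists were chosen with earlier results of these data known. The text names the 9 members and, from each role of the pathway list and each comparison, up to 4 called genes or up to 2 others of smallest p. A gene of the pathway list is not reported here and is left out of its counts. Bmpr2, Ski, Bmp1, Bmp10, Bmpr1b, Nog and Gdf7 were named outside that rule. Sequences are of RefSeq (GRCm38.p6) and GENCODE M21 (GRCm38), another build than that of the counts. Counting intervals and floors cover counting error only.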

Additional observations from a re-analysis of the deposited data

Results flagged for a closer look

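Bmp2 in MOS replicate 2 was 3.35 CPM, far above the next MOS library at 1.69 CPM, and Id2 in MOC replicate 6 was 15.3 CPM, far above the next MOC library at 8.96 CPM. Of the 32 groups of values looked at in this way (8 genes in 4 groups) 2 stood out, and chance gives about 1 in 20. MOS 2 was also among the 3 libraries highest in adipocyte markers (208 CPM), and MOC 6 was not (2.63 CPM). With all libraries, the effect of swimming on Bmp2 differed between the vectors, with an interaction of 2.05 on the log2 scale (edgeR adjusted p = 0.0291). That call was lost in 10 of 29 alternatives, the title series term among them, with adjusted p (edgeR or DESeq2) up to 0.137. Without MOS 2 the interaction was 1.72 (edgeR adjusted p = 0.0583). Over single libraries left out, Bmp2 in MOS against MOC spanned 0.067 to 0.60. Bmp2 was lower in 6 of 6 MES libraries and higher in 4 of 5 MOS libraries than the mean log2 level of their controls.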

How the results depend on the processing

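Bmp2 in MES against MEC kept its direction under all 30 alternatives and was called in 29 of them, and no called difference of a member changed its sign. Counts were less stable. With no filter on low counts, MOC against MEC had 150 called genes and 1 pathway gene, MOS against MES 0 pathway genes, and MOS against MOC 0 genes. With DESeq2 the called genes were 1235 (7 in the pathway) for MOC against MEC, 970 (2 in the pathway, 1 member) for MOS against MES, 403 (1 in the pathway) for MOS against MOC and 719 (5 in the pathway) for the interaction, and 11 pathway genes were called for MES against MEC. With only the groups compared they were 1622 (9 in the pathway) for MOC against MEC, 165 (0 in the pathway) for MOS against MES and 0 for MOS against MOC. With the title series as a term they were 164 (0 members, 0 in the pathway) for MES against MEC, 911 (7 in the pathway) for MOC against MEC, 1076 (2 in the pathway) for MOS against MOC and 25 (0 members) for the interaction, and 0 pathway genes for MOS against MES. Within 1 title series they were 1177 (1 member, 2 in the pathway) for MOS against MES and 862 (1 in the pathway) for MOS against MOC. Without the 3 adipocyte-high libraries they were 1555 (11 in the pathway) for MES against MEC, 771 (6) for MOC against MEC, 2318 (9, and 1 member) for MOS against MES and 134 for MOS against MOC, and the interaction had 0 members. The cause was not tested for any of these.

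Leaving out each library in turn gave 607 to 1922 called genes (1 to 3 members, 0 to 12 in the pathway) for MES against MEC, and 17 to 2885 (0 to 2 members, 0 to 15 in the pathway) for MOC against MEC. It gave 330 to 1871 (0 to 1 members, 0 to 7 in the pathway) for MOS against MES, 0 to 86 (0 members, 0 in the pathway) for MOS against MOC, and 18 to 358 (0 to 1 members, 0 to 4 in the pathway) for the interaction. Both highest counts against MEC, 1922 and 2885, came without MOS 2.

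Apart from Nbl1, no value whose sign turned had passed the test with all libraries. With the title series as a term they were Bmp6 (-0.43), Id3 (0.11) and Nbl1 (0.049) for MES against MEC, Tll1 (-0.18) for MOS against MES, and Id3 (0.13) for MOS against MOC. Within 1 series they were Id1 (0.0018) and Tll1 (-0.17) for MOS against MES and Id3 (0.145) for MOS against MOC. Without the adipocyte-high libraries they were Id1 (-0.078) for MOC against MEC, Tll1 (-0.25) for MOS against MES, Id2 (-0.072) and Gdf6 (-0.025) for MOS against MOC, and Bmp7 (0.11) and Id1 (0.030) for the interaction. Over single libraries left out, Bmp6 spanned -0.037 to 0.088 for MES against MEC and Id1 -0.025 to 0.11 for MOC against MEC. For MOS against MES, Bmp7 spanned -0.090 to 0.23, Id1 -0.17 to 0.0033 and Tll1 -0.24 to 1.20. For MOS against MOC, Id3 spanned -0.16 to 0.061, Id2 -0.068 to 0.46 and Gdf6 -0.022 to 1.15, and for the interaction Id3 spanned -0.024 to 0.20.

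No paired analysis was possible because the labels carry no replicate numbers, and those used here follow accession order. Depth limits Grem1, with 3 counts in all, and Bmp2, with 11 to 87 counts per library.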

Other observations

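The nearest profiles to the remaining members, by the mean absolute difference in SD units over 23 libraries, were Dynll1 (0.406), Carhsp1 (0.418) and Zyx (0.437) for Id3, and Spock2 (0.415), Cyp2d22 (0.448) and Phf3 (0.473) for Bmp6. For Bmp4 they were Ephx1 (0.49), Tfip11 (0.5) and Pes1 (0.506), and for Smad6 Nuak1 (0.499), Kank1 (0.511) and Cabin1 (0.526). Dynll1, a dynein light chain, had group means of 56.7 CPM in MEC, 48.0 in MES, 38.3 in MOC and 37.2 in MOS, the same order as the group means of Id3 (65.9, 59.6, 53.4 and 52.8 CPM). Dynll1 was chosen for this likeness, so the shared order is no separate result. Between members, Bmp4 was nearest to Bmp6 (0.848) and Smad6 to Id2 (0.884).

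Bmpr1b, a type I receptor too scarce to be tested, read 0 to 0.349 CPM in MES and 0.295 to 1.16 CPM in MOC, with 0.225 to 0.669 in MEC and 0.221 to 0.471 in MOS. Noggin (Nog) read 0.0744 to 0.377 CPM in MEC, 0.0765 to 0.644 in MES, 0.0737 to 0.384 in MOC and 0.234 to 0.659 in MOS. Gdf7 read 0.134 to 0.439 CPM in MEC, 0 to 0.0765 in MES, 0 to 0.1535 in MOC and 0 to 0.412 in MOS. A count of 0 allows up to 0.176 to 0.253 CPM for counting error only, so these levels rest on few counts. These genes were looked at after their values were seen, and no test was made.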
